A study of Danio rerio with 6 samples.

Results

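The gene mdka lies on zebrafish chromosome 7 (ENSDARG00000036036, chr7:39166460-39178198, GRCz11). The genes described here are the other chromosome 7 genes in the list of changed genes that came with the study, ordered by their distance from mdka. The list had been made by comparing the same 6 libraries, and the rows used here were 1264 of the genes with the smallest P in that comparison, because the sheet was used in a shortened form. Of these rows 85 lie on chromosome 7, which leaves 84 genes besides mdka out of 32520 genes in the count table. Since the rule picked genes by their difference between the genotypes, the size and direction of their differences are given as a description without tests. The 84 genes comprise 80 protein-coding genes, a lincRNA, a processed transcript, a pseudogene and an rRNA gene.

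RNA was sequenced from the ventricular apex of adult zebrafish of the AB strain, 7 days after cryoinjury (dpci) of the ventricle, a lesion made with a cold metal probe. One group, labelled MDKA KO, carried the CRISPR/Cas9 allele mdka cn105, and the other was wild type (mdka+/+). Knockout and control fish descended from crosses of the same parents, and the mutant group rests on 1 allele. By the study's methods each of the 3 libraries per genotype came from a pool of 3 apexes. The replicate is thus a pool of hearts. Standard errors given here rest on the spread between pools, which the fit shares in part across genes. An exact interval given further down covers counting error only. All 6 libraries shared the injury, the strain, the age and the time point, and uninjured hearts were not analysed here.

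Midkine-a, the product of mdka, is a small secreted heparin-binding cytokine known for roles in growth and repair of several tissues. Genes on the same chromosome are inherited together unless a crossover falls between them, and the closer they lie, the less often that happens. Fish chosen for a mutant allele of mdka therefore tend to share the stretch of chromosome around it, with whatever other sequence differences that stretch carries. For a gene near mdka, the loss of mdka and the alleles of the surrounding segment cannot be told apart when only the mutant and wild-type groups are compared. No genotypes of neighbouring genes were analysed here.

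Library totals ranged from 18940128 to 25195457 RSEM expected counts. Levels are given as CPM, a gene's counts relative to the library's total after a TMM correction for composition, always in the order of replicates 2, 3 and 4 for mdka cn105 and 1, 2 and 4 for mdka+/+. Because CPM is not divided by transcript length, levels were compared between pools of one gene and not between genes. A log2 fold change is the level in mdka cn105 over that in mdka+/+, with its standard error (SE), from edgeR's quasi-likelihood fit. The targeted gene itself measured 81.8, 132 and 139 CPM in the mdka cn105 pools and 429, 731 and 1069.5 CPM in the mdka+/+ pools. All mutant pools lay below all wild-type pools, and the mean level was 15.8% of wild type. The log2 fold change of mdka was -2.66 ± 0.36 (edgeR, unadjusted p = 8.81e-05, adjusted p = 0.0944 over 17879 genes). The midkine paralog that the name table also calls MDK had a log2 fold change of -0.46 ± 0.36.

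Of the 84 chromosome 7 genes, 41 were higher and 43 were lower in mdka cn105 hearts. All 84 fell under an unadjusted edgeR p of 0.05. Over all tested genes 5.64% were higher and 6.42% lower at that threshold, 1009 and 1148 genes. Scaled by library size only, 2081 of 2582 such genes were higher, so that balance depends on the scaling, while the 84 kept their directions. The median log2 fold change was 0.67 among the higher genes and -0.62 among the lower ones, and 17 genes had an absolute value above 1. All 84 passed the filter on low counts, with mean levels from 1.06 to 3745 CPM, and for all tested genes the share under the threshold was 12.1%. In 83 of the 84 genes the 3 mutant pools did not overlap the 3 wild-type pools, beside 17.7% of all tested genes. The exception was si:dkey-56m19.5, with 32.6, 40.6 and 41.8 CPM in mdka cn105 and 19.7, 24.8 and 33.0 CPM in mdka+/+. An absolute log2 fold change above 1 was found for 3.08% of all tested genes. Nothing is read from these shares, because the list had been drawn from the same libraries. After adjustment over all tested genes, 0 of the 84 had an edgeR p under 0.05 (0.00559% of all tested genes, which is 1 gene), whereas DESeq2 placed 36 under that threshold, beside 2.55% of all tested genes (456), and gave no adjusted p for 13.

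The sizes of the differences on chromosome 7 were close to those elsewhere in the list, where genes had passed the same choice by P. That choice by itself brings such sizes together, so nothing about chromosome 7 is read from it. The median absolute log2 fold change was 0.63 for the 84 genes, 0.60 for the 1179 listed genes of the other chromosomes and 0.19 for all tested genes. Higher genes made up 48.8% of the chromosome 7 genes and 49.3% of the listed genes elsewhere. The list's lowest-ranked chromosome 7 genes were si:dkey-171c9.3, insig1 and slc39a1, with log2 fold changes of 0.57 ± 0.21, 0.46 ± 0.17 and 0.45 ± 0.16. Outside the used rows, only chromosome 7 genes that could be placed by name in the gene order were searched. Among these, the smallest p in the fit belonged to crispld2 at -2.96 ± 0.78, batf2 at -2.44 ± 0.67 and rras2 at -0.33 ± 0.12 on the same scale. Of the 693 tested chromosome 7 genes that could be placed, 32 had an unadjusted p under 0.05 without being in the used rows. The 84 are therefore not all the chromosome's genes under that threshold. No share for unlisted genes elsewhere was set beside this count, so nothing more is read from it.

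Within 10 Mb of mdka, measured from start to start, lay 27 of the genes, 12 higher and 15 lower in mdka cn105. Beyond 10 Mb lay 57, of which 29 were higher and 28 lower. The median absolute log2 fold change was 0.61 within 10 Mb and 0.66 beyond it, both among genes chosen by the same P. The signed medians were -0.43 and 0.44, but no listed gene lies near a difference of 0, so the sign of such a median turns on a few genes. With the boundary at 5 Mb they became 0.42 and -0.38, and with the boundary at 15 Mb 0.46 and -0.43. The genes next to the boundary were frmd5 at 9.03 Mb and mfge8a at 9.62 Mb inside it, with log2 fold changes of -0.43 ± 0.14 and 0.45 ± 0.16. Just outside lay abtb2a at 10.11 Mb and gfod2 at 10.12 Mb, with -0.83 ± 0.21 and -0.49 ± 0.12. Higher and lower genes were thus mixed on both sides of mdka.

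**Figure D1:**
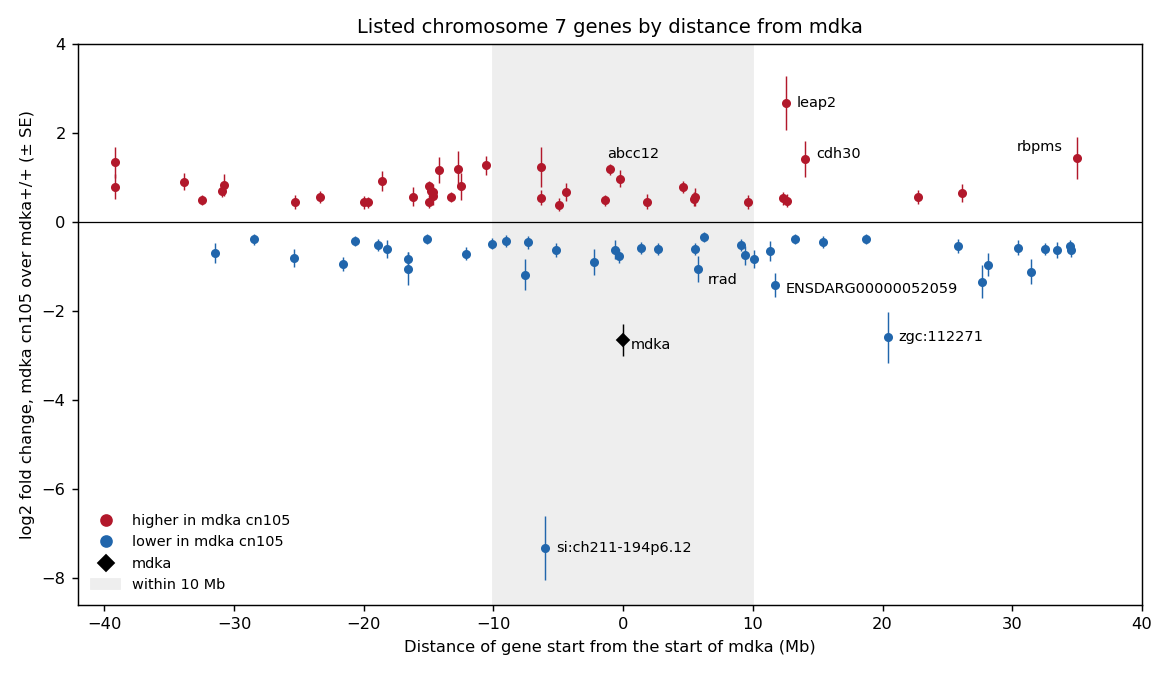
Log2 fold change (mdka cn105 over mdka+/+, ± SE from edgeR) of the 84 listed chromosome 7 genes (circles) and of mdka (diamond), plotted against the distance of each gene's start from that of mdka in Mb, with the 10 Mb on either side shaded. Genes higher and lower in mdka cn105 occur on both sides of mdka, 12 and 15 inside the shaded stretch and 29 and 28 outside it, and si:ch211-194p6.12 lies far below the rest at -7.32.

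The balance of higher and lower genes was not even along the chromosome. At lower coordinates and more than 10 Mb from mdka, 22 of 34 genes were higher in mdka cn105. At higher coordinates and more than 10 Mb away, 7 of 23 were higher and 16 were lower. In the first 10 Mb of the chromosome 6 of 7 listed genes were higher, among them an rRNA row whose reads cannot be assigned to chromosome 7 and a pseudogene row without whole values, and from 70 Mb to the end 5 of 6 were lower. Closer to mdka the split was 7 higher and 8 lower at lower coordinates, and 5 higher and 7 lower at higher coordinates. Read along the chromosome, the 84 directions formed 39 uninterrupted stretches. The longest stretch of higher genes held 9, from gmpr2 (start 24196575) to tp53i11a (start 26649319), and the longest of lower genes held 8, from ampd3a (start 66836476) to casq1b (start 73717581). Whether such stretches depart from a random order was not tested, because the genes had been chosen by this comparison.

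The 9 listed genes that start within 3 Mb of mdka give the nearest view of the segment around the mutation. The closest was creb3l1 (ENSDARG00000015793, chr7:38897836-38954874), 0.27 Mb away, which encodes a transcription factor held in the endoplasmic reticulum membrane and known in mice to drive genes of matrix secretion. It measured 4.80, 4.97 and 5.03 CPM in mdka cn105 and 2.28, 2.49 and 2.79 CPM in mdka+/+. The mutant pools were all higher and lay close together, with a log2 fold change of 0.97 ± 0.19. Next came zgc:110699 (ENSDARG00000017474, chr7:38811800-38822387) at 0.35 Mb, with 48.1, 53.2 and 38.2 CPM in mdka cn105 and 88.4, 80.1 and 68.3 CPM in mdka+/+. Every mutant pool was lower, and the log2 fold change was -0.76 ± 0.16. The gene slc7a9 (ENSDARG00000005894, chr7:38507006-38527833), whose mammalian counterpart is the light chain of a cystine transporter in the kidney, lies 0.66 Mb away. Its levels were 4.91, 6.73 and 3.93 CPM in mdka cn105 and 7.44, 8.61 and 7.96 CPM in mdka+/+. Its groups were separate but close, and its log2 fold change was -0.62 ± 0.22, from -0.86 to -0.46 when 1 library was left out. The unadjusted edgeR p of slc7a9 was at or above 0.05 in 4 of the alternative fits.

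The largest difference of the 9 belonged to abcc12 (ENSDARG00000013050, chr7:38158604-38183331), a membrane transporter of the ATP-binding cassette family that starts 1.01 Mb from mdka. It measured 27.9, 22.5 and 24.6 CPM in mdka cn105 and 10.6, 11.6 and 11.0 CPM in mdka+/+. The lowest mutant pool stood well above the highest wild-type pool, the mean was 2.26 times that of wild type, and the log2 fold change was 1.18 ± 0.13. At 1.4 Mb, adcy7 (ENSDARG00000060070, chr7:37761524-37858666), an adenylyl cyclase that makes the messenger cyclic AMP, was also higher in every mutant pool. Its levels were 49.6, 64.1 and 56.5 CPM in mdka cn105 and 38.9, 42.0 and 40.1 CPM in mdka+/+, a log2 fold change of 0.49 ± 0.12. The farthest of the 9 at lower coordinates was tox3 (ENSDARG00000073957, chr7:36898622-36969256), at 2.27 Mb, which encodes a nuclear protein of the HMG-box family. It measured 6.35, 9.15 and 5.78 CPM in mdka cn105 and 18.9, 9.85 and 10.9 CPM in mdka+/+. The mutant pools were lower, but mdka+/+ replicate 1 stood apart, and the log2 fold change of -0.90 ± 0.29 became -0.55 without that pool. In 2 of the alternative fits the unadjusted edgeR p of tox3 was at or above 0.05.

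At higher coordinates, dnajb6b (ENSDARG00000020953, chr7:40536928-40578733), a co-chaperone of the Hsp40 family, starts 1.37 Mb from mdka. It measured 217, 192 and 167 CPM in mdka cn105 and 310.2, 284 and 274 CPM in mdka+/+, a log2 fold change of -0.59 ± 0.13, with all mutant pools below all wild-type pools. At 1.84 Mb, insig1 (ENSDARG00000010658, chr7:41007773-41014773), which holds back the sterol sensor of the endoplasmic reticulum, measured 21.6, 21.2 and 17.4 CPM in mdka cn105 and 11.8, 16.4 and 15.8 CPM in mdka+/+. The groups were separated by a small gap, and the log2 fold change was 0.46 ± 0.17. In 4 of the alternative fits the unadjusted edgeR p of insig1 was at or above 0.05. The kinase gene mylk3 (ENSDARG00000076348, chr7:41821311-41858513), whose product phosphorylates the regulatory light chain of cardiac myosin, lies 2.65 Mb away. Its levels were 185, 163 and 179 CPM in mdka cn105 and 296, 284 and 228 CPM in mdka+/+, a log2 fold change of -0.61 ± 0.13. Among these 9 genes 4 were higher and 5 lower, and neighbours often differed in direction.

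**Figure D2:**
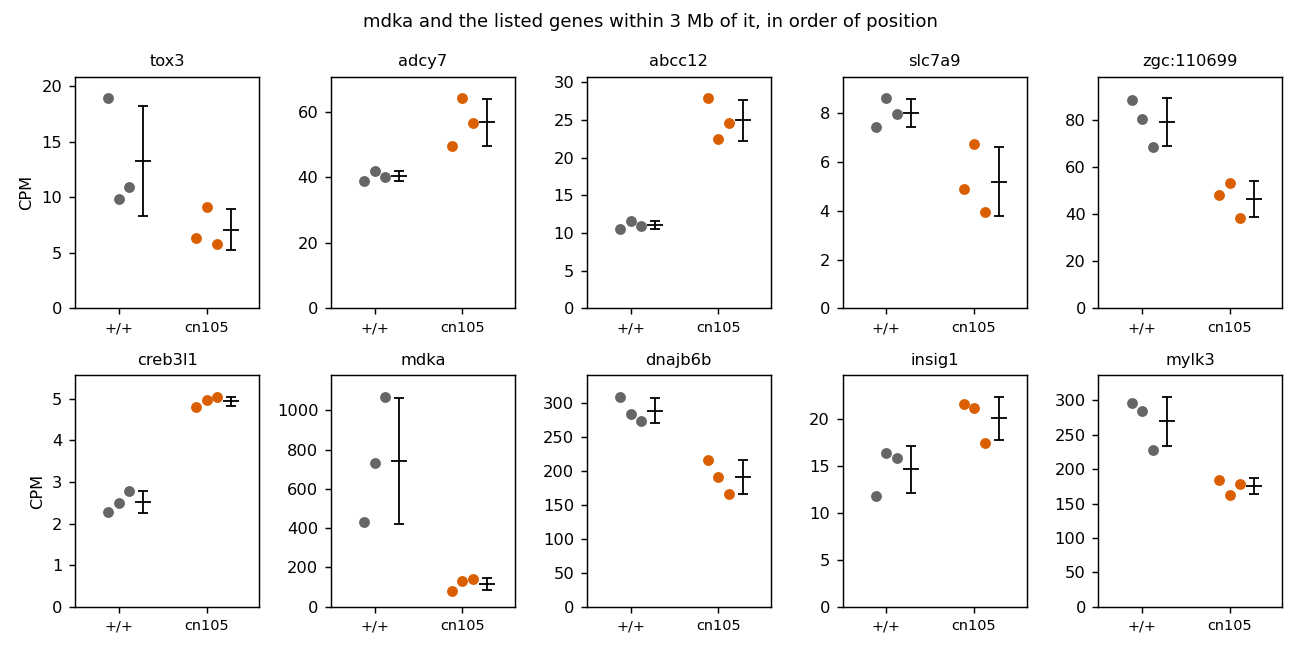
CPM (linear axes from 0) of mdka and the 9 listed genes within 3 Mb of it, in order of position, with 1 point per pool for mdka+/+ and mdka cn105 and a bar for the mean ± SD of 3 pools. In each panel the pools of the genotypes are separate, with abcc12, adcy7, creb3l1 and insig1 higher and the others lower in mdka cn105.

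The largest difference of all 84 genes was that of si:ch211-194p6.12 (ENSDARG00000095082, chr7:33172066-33176106), 5.99 Mb from mdka, which the name table calls ITLN1 after the human gene for intelectin, a secreted sugar-binding protein. Its expected counts, rounded, came to 0, 1 and 0 in mutant hearts, against 65, 42 and 90 in wild-type hearts. The gene was thus nearly without reads in every mutant pool and clearly counted in every wild-type pool. Per library size, the wild-type count summed over the pools was 202 times the mutant count. The exact 95% interval from 35.8 to 8001 covers counting error only. It leaves out the spread between pools and the choice of this gene as the largest difference. It is therefore not an interval for the difference between the genotypes. The fitted log2 fold change of -7.32 ± 0.72 depends on the small count that the fit adds, and is no bound. In the whole table this was the 1 gene with at most 3 counts over the mutant libraries and at least 100 over the wild-type ones. The reverse pattern was met by 5 genes, of which 0 are listed on chromosome 7. Of these, si:ch211-181d7.2 and si:ch211-214b16.2 were not in the used rows, so their chromosome is not given. Both had 0 counts in mdka cn105 replicate 3. In 4 of the 6 libraries the deposited value of si:ch211-194p6.12 was not whole, as RSEM gives where reads match several transcripts. Its count is therefore an estimate.

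The other large differences within 10 Mb of mdka were smaller by far. For slc17a6b (ENSDARG00000041150, chr7:32811907-32833255), a transporter that loads glutamate into synaptic vesicles, 6.35 Mb from mdka, the levels were 1.95, 1.81 and 2.39 CPM in mdka cn105 and 0.511, 1.5 and 0.580 CPM in mdka+/+. The mutant pools were higher, but mdka+/+ replicate 2 came near them. The log2 fold change of 1.24 ± 0.45 ranged from 0.97 to 1.90 when 1 library was left out, with 1.90 without that wild-type pool. Its unadjusted edgeR p was at or above 0.05 in 4 of the alternative fits. The wild-type counts of slc17a6b were only 11, 29 and 11. For igdcc4 (ENSDARG00000076919, chr7:31625662-31759602), an immunoglobulin-family membrane protein 7.54 Mb away, the levels were 0.702, 0.697 and 1.20 CPM in mdka cn105 and 2.0, 2.28 and 1.58 CPM in mdka+/+. All its mutant pools were lower, from 15 to 24 counts per library against 30 to 44, with a log2 fold change of -1.18 ± 0.34. The gene rrad (ENSDARG00000052011, chr7:44960188-44963154), 5.79 Mb away, encodes a small GTPase that restrains L-type calcium channels in heart muscle. It measured 219, 186 and 155 CPM in mdka cn105 and 573, 316 and 267 CPM in mdka+/+. The mutant pools were all lower, mdka+/+ replicate 1 was the highest pool by a wide margin, and the log2 fold change of -1.05 ± 0.29 became -0.65 without it.

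Beyond 10 Mb the largest differences lay on both ends of the scale. The gene leap2 (ENSDARG00000104654, chr7:51752239-51757085), 12.59 Mb from mdka, encodes a small secreted peptide first described as an antimicrobial of the liver. It measured 1.64, 3.85 and 2.04 CPM in mdka cn105 and 0.186, 0.207 and 0.790 CPM in mdka+/+, from 41 to 83 counts per library against 4 to 15. The mutant pools were all higher, with a log2 fold change of 2.67 ± 0.61. In contrast, zgc:112271 (ENSDARG00000111714, chr7:59553040-59564011), 20.39 Mb away and named BOLA2 in the name table after a human protein of iron-sulfur cluster handling, was lower. Its levels were 1.95, 0.464 and 0.448 CPM in mdka cn105 and 3.81, 6.69 and 7.22 CPM in mdka+/+, a log2 fold change of -2.59 ± 0.57. Among the mutant pools, replicate 2 was the highest and still below all wild-type pools. For these genes 5 and 4 of the 6 deposited values, in that order, were not whole.

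Next in size was rbpms (ENSDARG00000099396, chr7:74141297-74144215), an RNA-binding protein at the far end of the chromosome, 34.97 Mb from mdka, with 2.92, 1.58 and 1.69 CPM in mdka cn105 and 1.12, 0.311 and 0.843 CPM in mdka+/+. It was higher in every mutant pool, from 34 to 75 counts per library against 6 to 24, and mdka cn105 replicate 2 stood apart. The log2 fold change of 1.44 ± 0.48 ranged from 1.07 to 1.84 when 1 library was left out. Without mdka cn105 replicate 2 the unadjusted edgeR p of rbpms was no longer under 0.05. The cadherin gene cdh30 (ENSDARG00000104440, chr7:53215678-53231081), 14.05 Mb away, measured 1.01, 2.28 and 1.34 CPM in mdka cn105 and 0.465, 0.622 and 0.632 CPM in mdka+/+. Here too the mutant pools were higher, from 26 to 49 counts per library against 10 to 12, with a log2 fold change of 1.42 ± 0.41. The gene ENSDARG00000052059 (chr7:50876581-50883433), 11.71 Mb away, is named PAQR9 in the name table, after a membrane protein of the progestin and adipoQ receptor family. It measured 9.32, 5.15 and 8.37 CPM in mdka cn105 and 26.6, 15.7 and 18.4 CPM in mdka+/+. Its mutant pools were lower without overlap, and its log2 fold change was -1.41 ± 0.27. An AMP deaminase gene, ampd3a (ENSDARG00000005800, chr7:66836476-66868543), 27.67 Mb away, measured 1.01, 0.511 and 0.648 CPM in mdka cn105 and 1.95, 1.4 and 2.21 CPM in mdka+/+. It was lower in each mutant pool, from 11 to 26 counts per library against 27 to 42, with a log2 fold change of -1.34 ± 0.37. The used rows also held another gene named AMPD3, on chromosome 18, with 2898 to 5914 counts per library. That gene's log2 fold change was -0.53 ± 0.16.

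**Figure D3:**
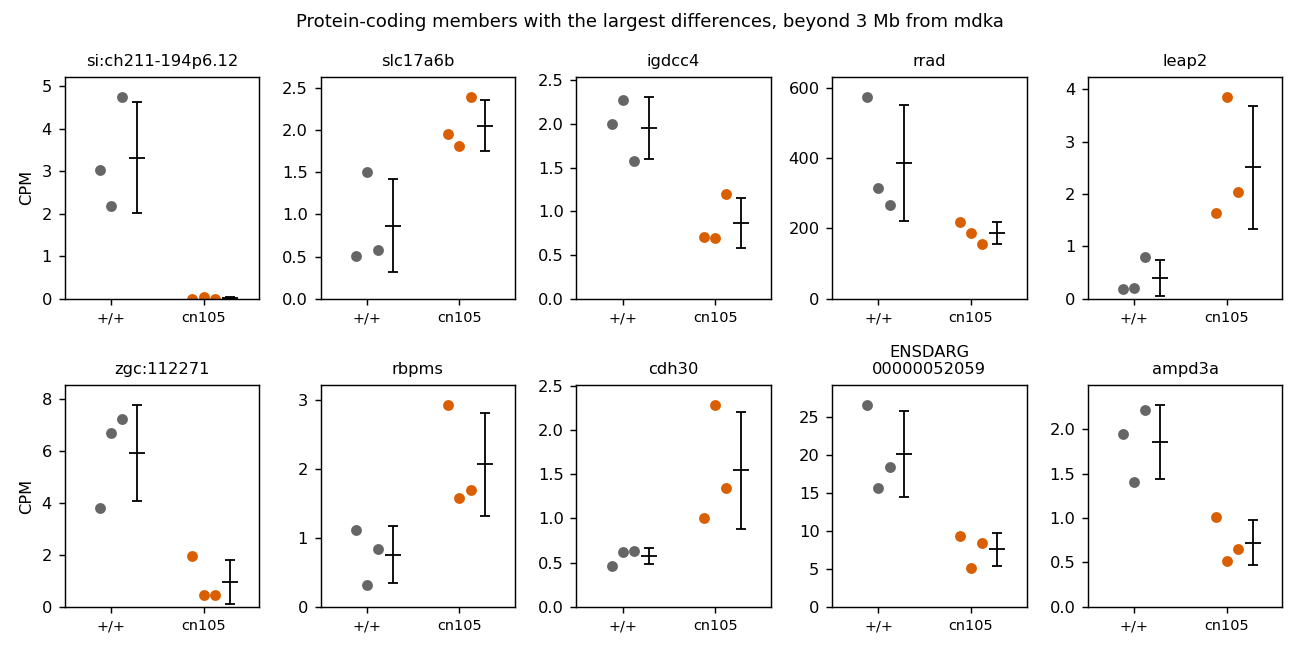
CPM (linear axes from 0) of the protein-coding genes with the largest absolute log2 fold changes, 4 lying 3 to 10 Mb from mdka (si:ch211-194p6.12, slc17a6b, igdcc4, rrad) and 6 beyond 10 Mb, with 1 point per pool and a bar for the mean ± SD of 3 pools. The mutant pools of si:ch211-194p6.12 lie at or next to 0, and the genotypes do not overlap in any panel.

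Of the 84 genes, 58 were placed in 6 groups by what they are known to do. The other 26, with 15 higher and 11 lower, were left without a role. The groups were drawn up with the genes' differences already known, so the counts per group are a description and no independent result. Genes for muscle contraction and excitation, here called heart muscle genes, were lower in mdka cn105 in 10 of 11 cases, with rbpms the exception. Of these lower genes, mybpc3 (ENSDARG00000011615, chr7:31838320-31899925), 7.33 Mb from mdka, encodes a myosin-binding protein of the thick filament. It measured 3324, 3434 and 2689 CPM in mdka cn105 and 4067, 4245 and 4711 CPM in mdka+/+, a log2 fold change of -0.46 ± 0.14. In myom1b, which encodes a cross-linker of the sarcomere's M-band, the levels were 1197, 1368 and 1134 CPM in mdka cn105 and 1777, 1813 and 2051 CPM in mdka+/+. For both genes every mutant pool was lower, and the log2 fold change of myom1b was -0.61 ± 0.13. The RNA-binding protein gene rbpms2b measured 1001, 1004 and 793 CPM in mdka cn105 and 1326, 1329 and 1319.7 CPM in mdka+/+, where the wild-type pools hardly differed, and its log2 fold change was -0.51 ± 0.13.

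The excitation genes of the group followed the same direction, though chrnb1 and the calcium buffer gene casq1b are known in mammals mainly from skeletal muscle. The potassium channel gene kcnq1.1, 9.39 Mb from mdka, measured 36.1, 36.7 and 27.1 CPM in mdka cn105 and 74.8, 46.7 and 47.0 CPM in mdka+/+. Its log2 fold change of -0.75 ± 0.22 became -0.49 without mdka+/+ replicate 1, its highest pool. The acetylcholine receptor subunit gene chrnb1 measured 16.8, 16.5 and 17.7 CPM in mdka cn105 and 34.3, 32.1 and 24.2 CPM in mdka+/+, a log2 fold change of -0.83 ± 0.15 with a wide gap between the genotypes. The remaining lower genes were casq1b, a calcium buffer of the sarcoplasmic reticulum (-0.62 ± 0.17 log2), ank2b, an ankyrin that anchors channels (-0.38 ± 0.11 log2), and myzap of the intercalated disc (-0.38 ± 0.12 log2). Paralogs outside chromosome 7's listed genes that share a name in the table had log2 fold changes of -0.35 ± 0.23 (MYOM1), -0.36 ± 0.14 (RBPMS2) and 1.81 ± 1.22 (CASQ1).

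In bulk tissue, fewer cells of a type and less RNA per cell cannot be told apart. The summed markers of some cell types, though not of all, differed between the genotypes. The summed level of 5 cardiomyocyte markers (myl7, tnnt2a, actc1a, ttn.2 and nppa) was 29003 to 35057 CPM in mdka cn105 and 40434 to 44169 CPM in mdka+/+, that is 76.6% of wild type. None of the 5 was at 0, 4 of them had an unadjusted p under 0.05, and all 5 were lower. When each pool's values were divided by that sum, a step chosen after seeing the data, 8 of the 11 heart muscle genes had a lower mean ratio and 3 a higher one. After the division only rrad and rbpms kept separate genotypes, while over all tested genes 40.3% were separate on that scale. Scaled in this way, mybpc3 stood at 0.943 and myom1b at 0.857 times wild type, against 0.725 and 0.656 before. What part of these differences comes from the amount of heart muscle in the pools was not tested.

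The group for mitochondria and energy metabolism was drawn widely and was split, with 4 higher and 6 lower. The 4 higher genes were gmpr2, ptgr1, bco1 and insig1. None of these acts in mitochondrial energy production, but this holds for lower genes too, among them the AMP deaminase gene ampd3a. Of the lower ones, acadvl encodes the enzyme that starts the oxidation of very long fatty acids and lies 18.87 Mb from mdka. It measured 1975, 1732 and 1477 CPM in mdka cn105 and 2638, 2532 and 2249 CPM in mdka+/+, a log2 fold change of -0.52 ± 0.14. The mutant pools were lower throughout, as they were for uqcrfs1, the Rieske subunit of respiratory complex III. Its levels were 457, 395 and 386 CPM in mdka cn105 and 537, 492 and 531 CPM in mdka+/+, a log2 fold change of -0.33 ± 0.11 and the smallest of the 84 in size. The coactivator gene ppargc1a, a driver of mitochondrial gene expression, had 14.1, 6.18 and 9.46 CPM in mdka cn105 and 24.1, 20.9 and 19.7 CPM in mdka+/+. Its mutant pools lay far below, with a log2 fold change of -1.12 ± 0.28. The amino acid enzyme gene aadat measured 6.12, 4.50 and 5.23 CPM in mdka cn105 and 8.32, 6.64 and 10.6 CPM in mdka+/+, also lower without overlap (-0.69 ± 0.22 log2). Among the higher genes, the reductase gene ptgr1 measured 103, 115 and 99.9 CPM in mdka cn105 and 64.5, 80.5 and 50.5 CPM in mdka+/+, a log2 fold change of 0.70 ± 0.17.

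In the group of matrix, secretion and adhesion, 10 of 14 genes were higher in mdka cn105. The secreted protein gene scube2, known for helping Hedgehog ligands leave the cell, lies 10.60 Mb from mdka and measured 5.03, 5.99 and 5.73 CPM in mdka cn105 and 2.23, 2.02 and 2.69 CPM in mdka+/+. Its lowest mutant pool stood well above its highest wild-type pool, and its log2 fold change was 1.27 ± 0.21. The cadherin gene cdh11, typical of mesenchymal cells, measured 41.2, 47.1 and 37.4 CPM in mdka cn105 and 25.9, 22.0 and 24.6 CPM in mdka+/+, a log2 fold change of 0.79 ± 0.13. The clotting factor XIII subunit gene f13a1b, whose product cross-links fibrin, measured 117, 121 and 133 CPM in mdka cn105 and 88.5, 71.7 and 68.4 CPM in mdka+/+. Both genes were added by hand to those given pool by pool. They were higher in all mutant pools, and the log2 fold change of f13a1b was 0.70 ± 0.13. The sulfotransferase gene gal3st4 had 2.03, 3.02 and 2.49 CPM in mdka cn105 and 0.511, 1.4 and 1.42 CPM in mdka+/+, a log2 fold change of 1.18 ± 0.41. The 4 lower genes were igdcc4, the tight junction gene cldn7a (-1.05 ± 0.37 log2), the adherens junction gene plekha7b (-0.71 ± 0.15 log2) and adamtsl5 (-0.65 ± 0.23 log2). In mdka cn105 and then mdka+/+, cldn7a measured 1.13, 0.557 and 1.30 CPM and 2.09, 2.44 and 1.69 CPM. In the same order, plekha7b measured 20.9, 27.2 and 19.5 CPM and 38.8, 35.1 and 36.3 CPM. A gene outside the used rows that shares its name PLEKHA7 had a log2 fold change of -0.02 ± 0.22. For adamtsl5 the levels were 9.51, 15.5 and 9.36 CPM and 15.8, 17.1 and 21.3 CPM.

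Epicardial and fibroblast markers did not all move one way, but their sum was higher in every mdka cn105 pool than in any mdka+/+ pool. It covered the 5 of 6 markers that could be matched (tcf21, tbx18, wt1b, pdgfra and col1a2) and was 1493 to 1902 CPM in mdka cn105 and 1012 to 1485 CPM in mdka+/+, 137% of wild type, with 3 of the 5 higher, 1 under an unadjusted p of 0.05 and none at 0. Divided by that sum, again a step chosen after seeing the data, 8 of the 14 genes had a higher and 6 a lower mean ratio. The genotypes stayed separate for the 4 lower genes (igdcc4, cldn7a, plekha7b and adamtsl5) and for gal3st4, scube2, creb3l1 and cdh30, and overlapped for the other 6, f13a1b and cdh11 among them. On that scale the genotypes were separate in 33.8% of all tested genes. The sum adds CPM, so markers with high levels weigh most in it. The marker col1a2 is itself a collagen gene that the study reported as higher in mutant hearts. The share of epicardial and fibroblast cells in the differences was not tested. Of the other marker sums, endothelial markers were at 739 to 932 CPM in mdka cn105 and 744 to 809.7 CPM in mdka+/+, erythroid markers at 3939 to 8642 CPM against 2552 to 4578 CPM, and the smooth muscle marker acta2 at 218 to 302 CPM against 195 to 251 CPM.

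Membrane transport genes were higher in 5 of 6 cases, and slc7a9 was the lower one. Besides abcc12 and slc17a6b, the group held slc7a8a, the light chain of a neutral amino acid transporter, with 35.1, 43.4 and 38.3 CPM in mdka cn105 and 21.5, 23.6 and 21.7 CPM in mdka+/+. Its mutant pools were all far higher than the wild-type pools, with a log2 fold change of 0.80 ± 0.12. Signalling and transcription genes were lower in 10 of 13 cases. The exceptions were rcor2, adcy7 and dock11. The corepressor gene rcor2 measured 3.39, 3.16 and 2.94 CPM in mdka cn105 and 1.53, 1.76 and 0.949 CPM in mdka+/+, and its log2 fold change of 1.16 ± 0.29 was the largest of the group. The osmotic stress factor gene nfat5b, lower in the mutant pools, measured 4.21, 5.06 and 2.74 CPM in mdka cn105 and 7.34, 9.28 and 6.85 CPM in mdka+/+ (-0.96 ± 0.26 log2). The small GTPase gene rasl12 was lower too, with 6.59, 7.99 and 5.33 CPM in mdka cn105 and 9.71, 13 and 12.2 CPM in mdka+/+ (-0.81 ± 0.20 log2). The growth factor gene fgf3 had a log2 fold change of -0.45 ± 0.13, and map2k5, a kinase of the ERK5 pathway, one of -0.63 ± 0.15.

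The immunity group held 4 genes, 3 of them higher. Besides leap2 these were btr09, a TRIM-type gene of fish, and cmtm3 of the chemokine-like factor family, with log2 fold changes of 0.58 ± 0.20 and 0.52 ± 0.16. Pool by pool, btr09 measured 6.51, 7.01 and 7.42 CPM in mdka cn105 and 5.76, 3.99 and 4.22 CPM in mdka+/+, and cmtm3 21.1, 26.7 and 28.5 CPM and 15.4, 17.8 and 20 CPM. The lower gene was nitr1b, an immune receptor of bony fish, with 16.6, 15.3 and 15.2 CPM in mdka cn105 and 28.1, 26.1 and 36.3 CPM in mdka+/+. Its mutant pools were close together and well below wild type, with a log2 fold change of -0.94 ± 0.15. Of the 6 deposited values of nitr1b, which the name table calls nitr1o, 5 were not whole, so its counts are estimates. Beside this group, the summed macrophage markers mpeg1.1, marco and csf1ra were at 273 to 328 CPM in mdka cn105 and 180.2 to 226 CPM in mdka+/+, and the neutrophil marker lyz at 2.44 to 5.11 CPM against 8.22 to 42.9 CPM. None was at 0, and the part of these cells in the 4 genes' differences was not tested.

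**Figure D4:**
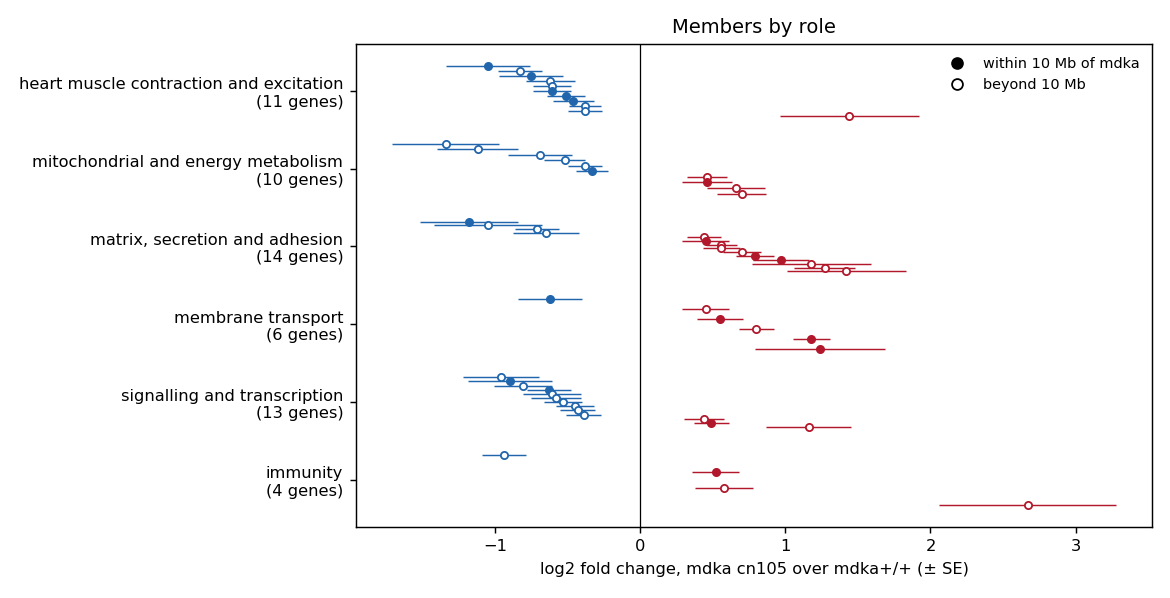
Log2 fold change (mdka cn105 over mdka+/+, ± SE from edgeR) of the 58 genes placed in 6 role groups, filled where a gene lies within 10 Mb of mdka and open where it lies beyond. Genes of the heart muscle group are lower except rbpms, and 10 of 14 genes for matrix, secretion and adhesion are higher in mdka cn105. The groups were drawn up with these values known.

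In 5 cases a gene's nearest listed neighbour started within 50 kb, and in 4 of these both genes differed in the same direction. One such pair was slc17a6b and ano5b, an anoctamin gene, separated by 886 bp on the same strand and both higher, with ano5b at 72.7, 52.1 and 70.2 CPM in mdka cn105 and 37.7, 46.7 and 48.8 CPM in mdka+/+ (0.55 ± 0.16 log2). Another was gmpr2, a GMP reductase gene, and slc7a8a, separated by 3945 bp and both higher, with gmpr2 at 24.1, 24.2 and 29.6 CPM in mdka cn105 and 21.3, 17.3 and 18.1 CPM in mdka+/+ (0.46 ± 0.14 log2). The pair btr09 and si:dkeyp-75h12.2 lay 1167 bp apart, and si:dkeyp-75h12.2 was higher with 9.36, 11.3 and 8.97 CPM in mdka cn105 and 6.27, 7.15 and 5.11 CPM in mdka+/+ (0.67 ± 0.18 log2). The pair in opposite directions was si:dkey-56m19.5, higher by 0.57 ± 0.20 log2, and the lincRNA ENSDARG00000102706, 5.56 Mb from mdka. That lincRNA measured 804, 627 and 763 CPM in mdka cn105 and 1199, 1023 and 1130.1 CPM in mdka+/+, lower in all mutant pools (-0.61 ± 0.13 log2).

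The last pair stands at the very start of the chromosome and consists of non-coding rows. The ribosomal RNA gene ENSDARG00000111902 (start 5296) measured 9.36, 10.5 and 21.2 CPM in mdka cn105 and 4.14, 6.48 and 5.59 CPM in mdka+/+, higher in every mutant pool. Its log2 fold change of 1.34 ± 0.34 became 0.88 without mdka cn105 replicate 4, the highest pool. Rows for the same rRNA on chromosomes 4 and 5 held the same values in all 6 libraries, so the reads cannot be assigned to chromosome 7. The pseudogene ENSDARG00000114910 (start 7653) measured 277, 337 and 419.9 CPM in mdka cn105 and 224, 253 and 120.4 CPM in mdka+/+ (0.79 ± 0.28 log2), and none of its 6 values was whole. Over all 84 genes, 55 had whole values only, 29 had at least 1 value that was not whole, and 12 had 6 such values, which marks reads that RSEM divided among transcripts. Those with 6 include adcy7, cdh30, f13a1b, myom1b and the lincRNA. Without the 4 non-coding rows, 39 of 80 genes were higher.

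All tested genes, not only listed ones, were then counted along the chromosome, using the gene order of the GRCz12tu assembly. Of the tested genes, 12614 could be placed by name, among them 62 of the 84 on chromosome 7. With mdka, 95 of 693 placed chromosome 7 genes had an unadjusted p under 0.05, that is 13.7%, beside 11.9% of all placed genes. By this share chromosome 7 held rank 3, level with chromosome 23 and behind chromosomes 18 and 19 at 14.2% and 13.9%. It held the most listed genes, 6.72% of the list, and 5.49% of the placed genes. Chromosome 5, with 5.78% of the placed genes, held 5.46% of the list. Shares of the list cover all 1264 used rows by their GRCz11 chromosome, of which only 878 could be placed by name. The shares of the list and of the placed genes therefore rest on unlike sets.

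Among the 100 nearest placed genes on each side of mdka, 31 of 200 had an unadjusted p under 0.05, that is 15.5%, of which 13 were higher in mdka cn105. With 50 genes per side the count was 15 of 100, and with 200 per side it was 52 of 400, or 13%. Among the other placed genes of the chromosome it was 63 of 492, or 12.8%. Without mdka cn105 replicate 4 the share among the 100 nearest per side was 9.0%, beside 7.32% of all tested genes in that fit. Without mdka+/+ replicate 4 it was 21.5%, beside 15.1%. The median log2 fold change of these nearest genes was -0.00. No test was made of the difference between the shares.

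**Figure D5:**
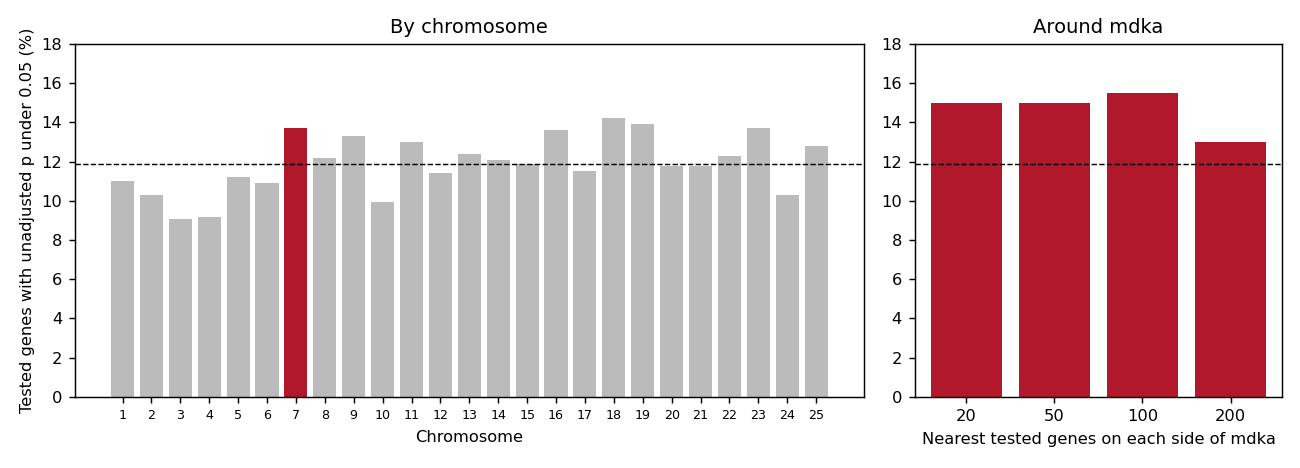
Share of placed tested genes with an unadjusted p under 0.05 (edgeR, bars from 0, in %) by chromosome with chromosome 7 in red, and among the nearest tested genes on each side of mdka, with the share of all placed genes (11.9%) as a dashed line. Chromosome 7 is at 13.7%, and the windows around mdka lie between 13% and 15.5%.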

How the data were processed

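Stranded libraries were sequenced by the authors as single reads, processed with bcl2fastq 2.20.0.422 and cutadapt, mapped against the GRCz11 reference transcriptome and quantified with RSEM. The deposited table holds the authors' RSEM expected counts of 32520 genes, estimates that divide reads matching several transcripts and that were neither normalized nor filtered. Gene IDs, symbols and GRCz11 positions of the listed genes came from the first sheet of the study's list, and its fold changes and P values were not used. The list is in a shortened form, so further changed genes of chromosome 7 are not described.

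Expected counts were rounded to integers, then filtered with filterByExpr (minimum count 10, minimum total 15), which left 17879 genes. They were scaled with TMM and compared with edgeR 4.0.16 (R 4.3.3) by the two-sided quasi-likelihood test without covariates on all 6 libraries, with Benjamini-Hochberg adjustment. The fits were tested on simulated data. Each standard error was the log2 fold change divided by the root of its F statistic. Library totals ranged from 18940128 to 25195457.

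Alternatives were DESeq2 1.42.0, limma-voom (limma 3.58.1), other scalings and filters, the replicate number as a block, each library left out, and other distance boundaries. Values in every pool are given for genes within 3 Mb of mdka, the 6 largest differences within and beyond 10 Mb, the 8 highest levels, neighbours within 50 kb, and up to 4 genes per role. They are also given for the higher genes cdh11 and f13a1b and the lower genes cldn7a, plekha7b and adamtsl5, which these rules did not pick. The members and lists were chosen with earlier results of these data known. Gene order came from RefSeq's GRCz12tu table, of which no coordinates are given. Other steps used Python 3.11.15, pandas 2.3.3 and scipy 1.17.1.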

Additional observations from a re-analysis of the deposited data

How the results depend on the processing

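All 84 chromosome 7 genes kept their direction in each of the 13 alternative fits, and 49 had an unadjusted p under 0.05 in every one. The 84 had been chosen by their P in these same libraries, which every fit reuses in full or in part. Reversals were therefore unlikely from the start, and nothing is read from their absence. Leaving out 1 library left 66 to 81 of the 84 genes under that threshold. Of 1092 values of single genes, 42 moved by more than the spread between pools and 0 reversed. The count of all genes with an adjusted p under 0.05, 1 in edgeR, was 456 with DESeq2, 2 with limma-voom, 19 with library size only, 19 without a filter and 0 to 3 when 1 library was left out. The count at an unadjusted p under 0.05, 2157, ranged from 1332 to 2772 when 1 library was left out, the lowest without mdka cn105 replicate 4 and the highest without mdka+/+ replicate 4. With library size only the median over all genes moved, on the log2 scale, from -0.01 to 0.13. The share among the 100 nearest genes on each side of mdka ranged from 9.0% to 21.5% when 1 library was left out. The signed medians within and beyond the boundary were 0.42 and -0.38 at 5 Mb and 0.46 and -0.43 at 15 Mb, while the absolute medians stayed between 0.62 and 0.65. Without the non-coding rows, 39 genes were higher.

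Both genotypes have a replicate 2 and a replicate 4, and no label states that such pools were handled together. The deviations of equally numbered pools correlated at 0.108 and -0.00578, so the numbers were not taken as a pairing. With the number as a block, 4 genes had an adjusted and 1976 an unadjusted p under 0.05, 65 of the 84 genes among the latter, and adamtsl5 had a larger log2 fold change of -1.01. Smaller ones were found for gal3st4 (0.67), cdh30 (0.89), insig1 (0.27), mfge8a (0.28) and slc39a1 (0.25), none of which then had an unadjusted p under 0.05. Those of rrad (-0.66), si:dkey-56m19.5 (0.37) and ENSDARG00000052059 (-0.94) were also smaller but kept that threshold. With library size only, uqcrfs1 (-0.20), dhrs4, myzap and ank2b (-0.24 each) and arnt2 (-0.25) came closer to 0 and lost it. Number 1 occurs only in mdka+/+ and number 3 only in mdka cn105. With the block, the log2 fold changes therefore rest on replicates 2 and 4 of both genotypes. With library size only, the median log2 fold change over all tested genes rose too, from -0.01 to 0.13. What else enters these shifts was not tested.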
